A study of Mus musculus with 2 samples.

Results

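The genes described here encode proteins of the mitochondrial ribosome and carry symbols of the form Mrpl or Mrps followed by a number. They were chosen by symbol alone, with no measured value, from the gene names in the deposited transcript tables. The rule found 78 protein-coding genes, 49 with large-subunit symbols (Mrpl) and 29 with small-subunit symbols (Mrps), of 55450 annotated genes and 21951 protein-coding genes in the gene tables. A further 5 symbols that begin in the same way fell outside the rule, and all are pseudogenes.

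Total RNA had been sequenced from gastrocnemius, the large calf muscle, of male B6CASTF1/J mice aged 10 days. There was 1 group of 2 libraries, each from 300 ng of RNA spiked with ERCC control RNAs. Per the labels, the mice have separate animal numbers but share a donor code. No second condition was labelled, so no gene was tested, and the spread between the libraries is that between 2 samples of 1 group.

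Mitochondria keep a ribosome of their own, which translates the few mRNAs encoded by the mitochondrial genome, all for membrane subunits of the oxidative phosphorylation complexes. Its ribosomal RNAs come from mitochondrial DNA, while in mammals its proteins are all encoded in the nucleus, made in the cytosol and imported. Some of these proteins have homologues in the bacterial ribosome and others are found only in mitochondria. Skeletal muscle is rich in mitochondria, and the tissue is still maturing at this age.

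Expected counts summed to 38160786 for replicate 2 and 38874862 for replicate 1 in the gene tables. The 78 genes took 68506 counts in replicate 2 and 66302 in replicate 1, or 0.181% and 0.172% of endogenous counts. A gene whose effective length is 1000 bases would reach 3 counts at 0.0924 TPM in replicate 2 and at 0.0925 TPM in replicate 1. All of the 10 fast-muscle markers were detected, with a summed level of 105518 TPM in replicate 2 and 104270 in replicate 1 (Myh4, Myh1 and Ckm among them). In whole tissue, fewer cells of a type and less RNA per cell cannot be told apart.

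All 78 genes were detected, at 1 TPM or more in both libraries, against 11317 of the 21951 protein-coding genes (51.6%). TPM is a length-scaled abundance with a fixed total per library. The median level of the 78 genes was 23.5 ± 0.601 TPM (SD, n = 2), beside 8.49 ± 0.255 TPM over all detected protein-coding genes. Their summed level was 2555 ± 62.4 TPM. The genes lay on 17 chromosomes, with 11 on chromosome 11, 8 on chromosome 17 and 7 on chromosome 6.

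A group of 5 genes stood above the rest in the gene tables. Mrps21, at chr3:95862634-95871519 (mm10, minus strand), encodes the homologue of bacterial S21 and had the highest mean, with 127 TPM in replicate 2 and 115 in replicate 1. Mrpl33, a small homologue of bacterial L33, had 112 TPM in replicate 2 and 116 in replicate 1. Mrpl42, a protein found only in mitochondrial ribosomes, had 110.5 TPM in replicate 2 and 116 in replicate 1. These 3 genes stood in a different order in each library, and neighbours among them did not differ beyond their spread. Mrpl30, the homologue of bacterial L30, had 112 TPM in replicate 2 and 104 in replicate 1. Mrpl51, at chr6:125191801-125196269 (plus strand) and also specific to mitochondria, had 98.9 TPM in replicate 2 and 101 in replicate 1. The widest gap in the order of the gene tables, 27.2 TPM, separated Mrpl51 from the next gene, and it exceeded the joint spread of both genes (root of the summed squared SDs 5.01 TPM). In the second set of deposited tables the same 5 genes led, but Mrpl33 was highest, with a mean of 210 TPM. The wide gap was absent there, as Mrpl51 at 144.5 TPM was followed by Mrpl23 at 133.6 TPM.

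In the gene tables, the next gene was Mrpl17, the homologue of bacterial L17, with 76.0 TPM in replicate 2 and 69.1 in replicate 1. Mrpl12, at chr11:120484613-120489065 (plus strand), encodes the homologue of the bacterial stalk protein L7/L12 and had 67.4 TPM in replicate 2 and 62.5 in replicate 1. It stood at rank 7, above Mrps12 (chr7:28739641-28741820, minus strand), the homologue of the decoding-site protein S12, which had 21.4 TPM in replicate 2 and 19.8 in replicate 1. Mrps36 had 62.1 TPM in replicate 2 and 55.8 in replicate 1. Although its symbol is that of a small-subunit protein, its product is now counted as a component of the 2-oxoglutarate dehydrogenase complex. Mrpl52 had 57.4 TPM in replicate 2 and 60.1 in replicate 1, and Mrps23 had 56.4 TPM in replicate 2 and 56.8 in replicate 1. The same 10 genes led in both libraries in the gene tables.

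**Figure D1:**
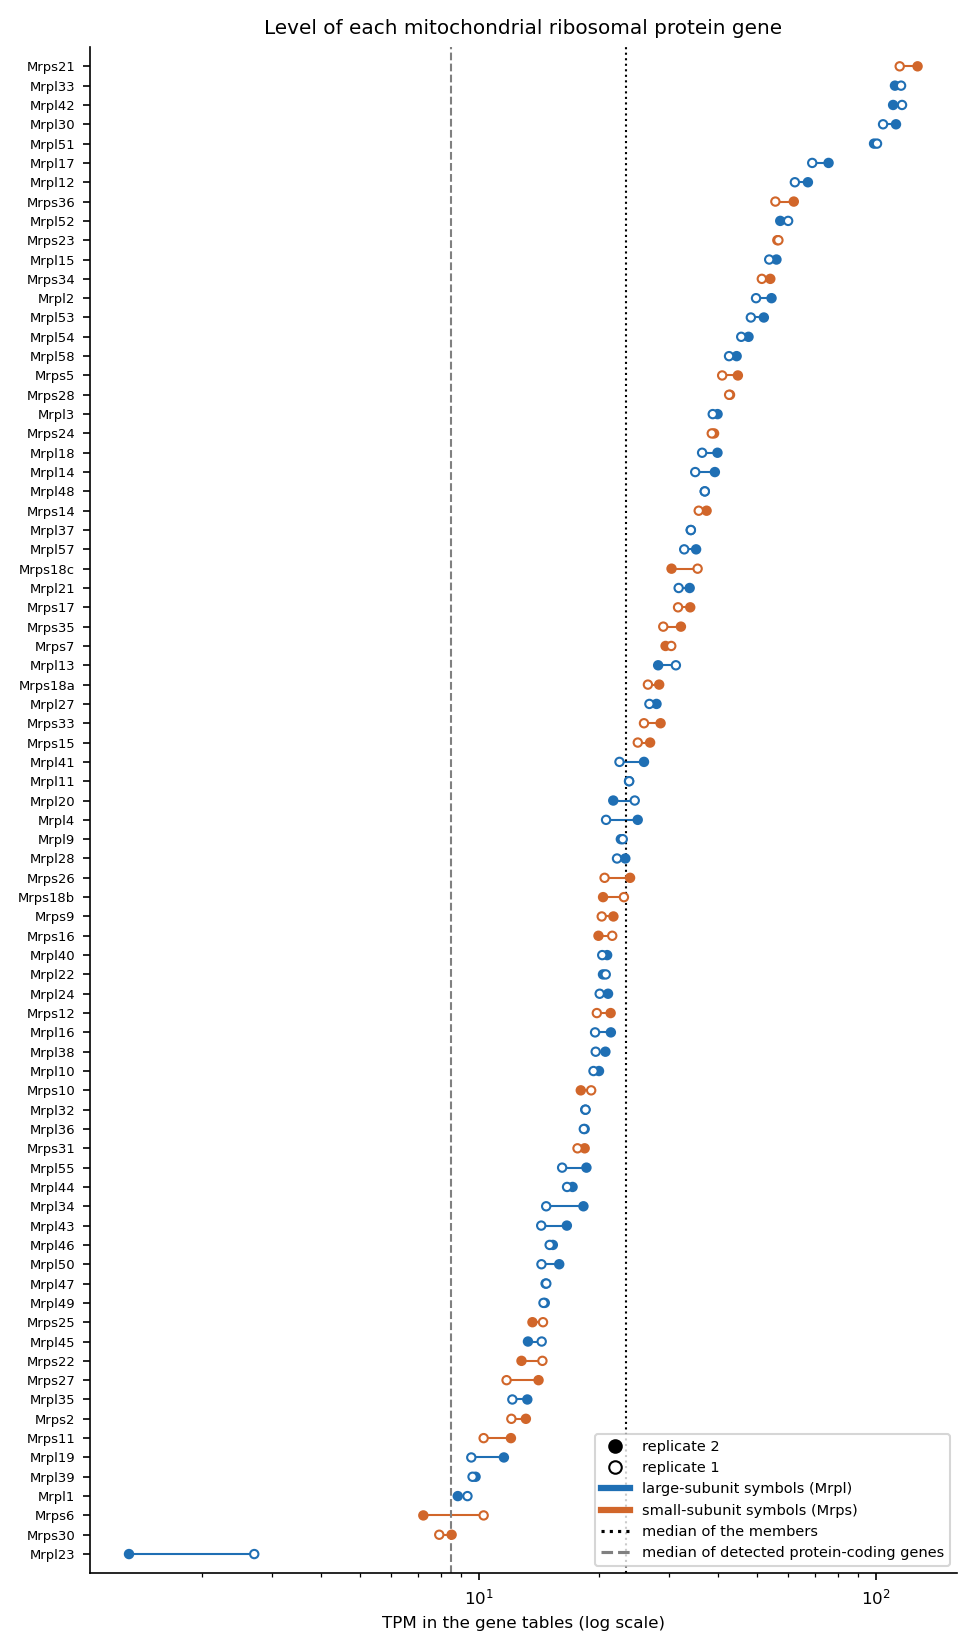
TPM of each of the 78 genes in the gene tables, on a log scale, with a filled point for replicate 2 and an open point for replicate 1. Levels ran from 2.01 TPM for Mrpl23 to 121 TPM for Mrps21 (means of both libraries), and the libraries lay close together for nearly every gene.

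Below these, the genes formed a continuous series. A level from 10 to 60 TPM was seen for 66 genes, 60 TPM or more for 7 and under 10 TPM for 5. Of the 77 pairs of neighbours in the order, 63 differed by no more than their joint spread. The SD across genes was 1.01 on the log2 TPM scale, against an SD of 0.125 between libraries (root mean square over genes). The order of the genes was nearly the same in both libraries (Spearman's correlation 0.988 across 78 genes, which share libraries and are not independent). Spearman's correlation between the transcript length listed per gene and TPM was -0.63 across the 78 genes, with lower levels at greater lengths. Length also enters the calculation of TPM.

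The 6 genes with the lowest means were a mixed group. Mrpl23 was listed at 1.31 TPM in replicate 2 and 2.71 in replicate 1, and is described further with its pseudogene. Mrps30, whose protein sits in the large subunit despite its symbol, had 8.52 TPM in replicate 2 and 7.93 in replicate 1. Mrps6, the homologue of bacterial S6 at chr16:92058270-92112227 (plus strand), had 7.23 TPM in replicate 2 and 10.3 in replicate 1. Mrps30 lies at chr13:118378381-118387252 (minus strand) and has a long transcript, with a listed length of 3329 bases in replicate 1. It still had 893 counts in replicate 2 and 831 in replicate 1. Mrpl1, the homologue of the bacterial L1 stalk protein, had 8.83 TPM in replicate 2 and 9.34 in replicate 1. Mrpl39 had 9.79 TPM in replicate 2 and 9.62 in replicate 1, and Mrpl19 had 11.5 TPM in replicate 2 and 9.55 in replicate 1. The highest mean exceeded the lowest by 60.2-fold, and by 14.7-fold once Mrpl23 was set aside.

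Large-subunit and small-subunit genes had medians close to each other. The median was 22.96 ± 0.552 TPM over the 49 large-subunit symbols and 26.03 ± 1.32 TPM over the 29 small-subunit symbols (SD, n = 2), a log2 ratio of large over small of -0.18 ± 0.04. This small difference did not hold across settings: it was -0.02 in the second set of deposited tables and 0.06 when means of log2 TPM replaced medians. Moving Mrps18a and Mrps30 to the large subunit, where their proteins sit, and leaving out Mrps36 gave -0.11. The 46 genes whose protein names mark a bacterial homologue had a median of 23.5 ± 0.1202 TPM. The 31 named as specific to mitochondria, which include Mrps18a and Mrps18b, had 23.3 ± 1.01 TPM. The 3 paralogues of bacterial S18, whose proteins occupy different sites of the ribosome, had similar levels. Mrps18c had 30.5 TPM in replicate 2 and 35.5 in replicate 1, Mrps18a had 28.4 and 26.6 TPM, and Mrps18b had 20.5 and 23.2 TPM, in the same order of libraries.

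The other genes of mitochondrial translation were set beside them from lists chosen by function. Mitoribosomal proteins with other symbols had a like median, 31.5 ± 1.31 TPM over 5 genes. Among them, the highest was Chchd1 with 44.7 TPM in replicate 2 and 47.8 in replicate 1, and the lowest Gadd45gip1 with 15.5 TPM in replicate 2 and 14.2 in replicate 1. Aurkaip1 had 37.1 TPM in replicate 2 and 39.7 in replicate 1, Ptcd3 had 30.6 and 32.4 TPM, and Dap3 had 28.9 and 28.8 TPM. The lists of other factors and enzymes of mitochondrial translation were lower. Their median was 13.5 ± 0.707 TPM over 16 translation factors and 6.14 ± 0.583 TPM over 24 assembly factors. For 17 mitochondrial tRNA synthetases it was 6.43 ± 0.424 TPM. The ribosomal protein genes thus had a median 1.75-fold that of translation factors and 3.84-fold that of assembly factors. In the gene tables Slirp, which stabilises mitochondrial mRNAs, led the factors with 72.2 TPM in replicate 2 and 71.7 in replicate 1. In the second tables it had 19.2 TPM in replicate 2 and 64.6 in replicate 1, below the elongation factor Tufm with 82.2 and 73.1 TPM. The lowest mean in the gene tables was that of Mtrf1l, a release factor, with 2.09 TPM in replicate 2 and 2.94 in replicate 1, but Mtfmt and Mtrf1 were lower in replicate 1 and in the second tables. Among assembly factors, Malsu1 had 18.5 TPM in replicate 2 and 24.2 in replicate 1, and Mrm1, an rRNA methyltransferase, had 1.44 and 1.62 TPM. Among tRNA synthetases, Iars2 for isoleucine, with the highest mean, had 23.5 TPM in replicate 2 and 24.0 in replicate 1, and Mars2 for methionine had 1.61 and 1.63 TPM.

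Genes of other large complexes had higher levels. The median was 273 ± 22.6 TPM over 75 nuclear genes of oxidative phosphorylation subunits, 11.6 times that of the mitochondrial ribosomal protein genes. Atp5b, the catalytic subunit of ATP synthase, was highest with 1977 TPM in replicate 2 and 1718 in replicate 1. Over the 83 genes of cytosolic ribosomal proteins the median was 316 ± 0.891 TPM, 13.5 times that of the mitochondrial set. Among these, Rpl41 was highest with 871 TPM in replicate 2 and 835 in replicate 1, and the testis paralogue Rpl10l was listed at 0 in both. The summed level of the 78 genes was 10.2% of that of the cytosolic ribosomal protein genes in replicate 2 and 9.75% in replicate 1. The 13 mitochondrially encoded mRNAs summed to 39159 TPM in replicate 2 and 40748 in replicate 1, with mt-Co1, a cytochrome oxidase subunit, at 9494 and 9178 TPM. The 2 mitochondrial ribosomal RNAs were listed at 31917 TPM in replicate 2 and 30068 in replicate 1 for mt-Rnr1, and at 54329 and 49167 TPM for mt-Rnr2. The labels name a spike-in profile for libraries with reduced ribosomal RNA, so the level of these RNAs relative to the proteins' mRNAs was not read further.

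Counts of the 78 genes were slightly higher in replicate 2. After TMM scaling over all endogenous genes, the median log2 ratio of replicate 2 over replicate 1 was 0.13 over the 78 genes, with 64 above 0 and 14 below. Over the 13132 protein-coding genes that averaged at least 20 counts it was 0.01, with 7006 above 0 and 6126 below. Summed over the genes, the ratio was 0.12, with an exact 95% binomial interval of 0.10 to 0.13 that covers counting error only. Few single genes differed by much. Mrpl34 (0.38) and Mrpl4 (0.32), homologues of bacterial L34 and L4, were over 25% higher in replicate 2, which is 2 of 78, beside 7.2% of protein-coding genes. Mrpl23 (-0.69) and Mrps6 (-0.45) were over 20% lower in replicate 2, the same fold in the other direction, again 2 of 78, beside 8.08% of protein-coding genes. With a minimum mean count of 100, 2 of 77 were higher by that fold and 1 lower, beside 5.61% and 4.07% of protein-coding genes. The exact 95% counting interval lay above 0 for 34 of the 78 genes, beside 19.1% of protein-coding genes, and below 0 for 2, beside 13.2%. It spanned 0 for the other 42, and its width depends on each gene's counts.

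The ratio varied with the transcript length listed per gene: its median lay between -0.05 and 0.09 over 20 length bins of protein-coding genes. The mitochondrial ribosomal protein genes have short transcripts, with a median length of 941 bases against 2425 bases for detected protein-coding genes. With the median ratio of genes of like length removed, the median was 0.06, with 56 genes above 0 and 22 below, beside a median of 0 over protein-coding genes, set by construction. Of the 78 genes, 0 were then over 25% higher, beside 6.31% of protein-coding genes, and 2 over 20% lower, beside 8.52%. Without that removal, the median over the 78 genes was 0.08 under library totals and 0.10 under spike-in totals. The medians over protein-coding genes were then -0.03 and -0.02. The difference between the medians was 0.112 under both scalings and under TMM, since a scaling shifts all genes alike.

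Mrpl34 had 302 counts in replicate 2 and 243 in replicate 1, with an interval of 0.13 to 0.63 around its log2 ratio. Mrpl4 had 962 counts in replicate 2 and 807 in replicate 1, with an interval of 0.19 to 0.46. Next came Mrps27, an RNA-binding pentatricopeptide repeat protein, at 0.31, Mrpl19 at 0.31 and Mrpl55 at 0.31. Mrps6 had 175 counts in replicate 2 and 251 in replicate 1, with an interval of -0.74 to -0.17. After Mrps6, the lowest among genes averaging at least 100 counts were Mrps18c (-0.10), Mrps22 (-0.10) and Mrpl20 (-0.07), followed by Mrpl52 (-0.06). The intervals of these 4 genes spanned 0.

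**Figure D2:**
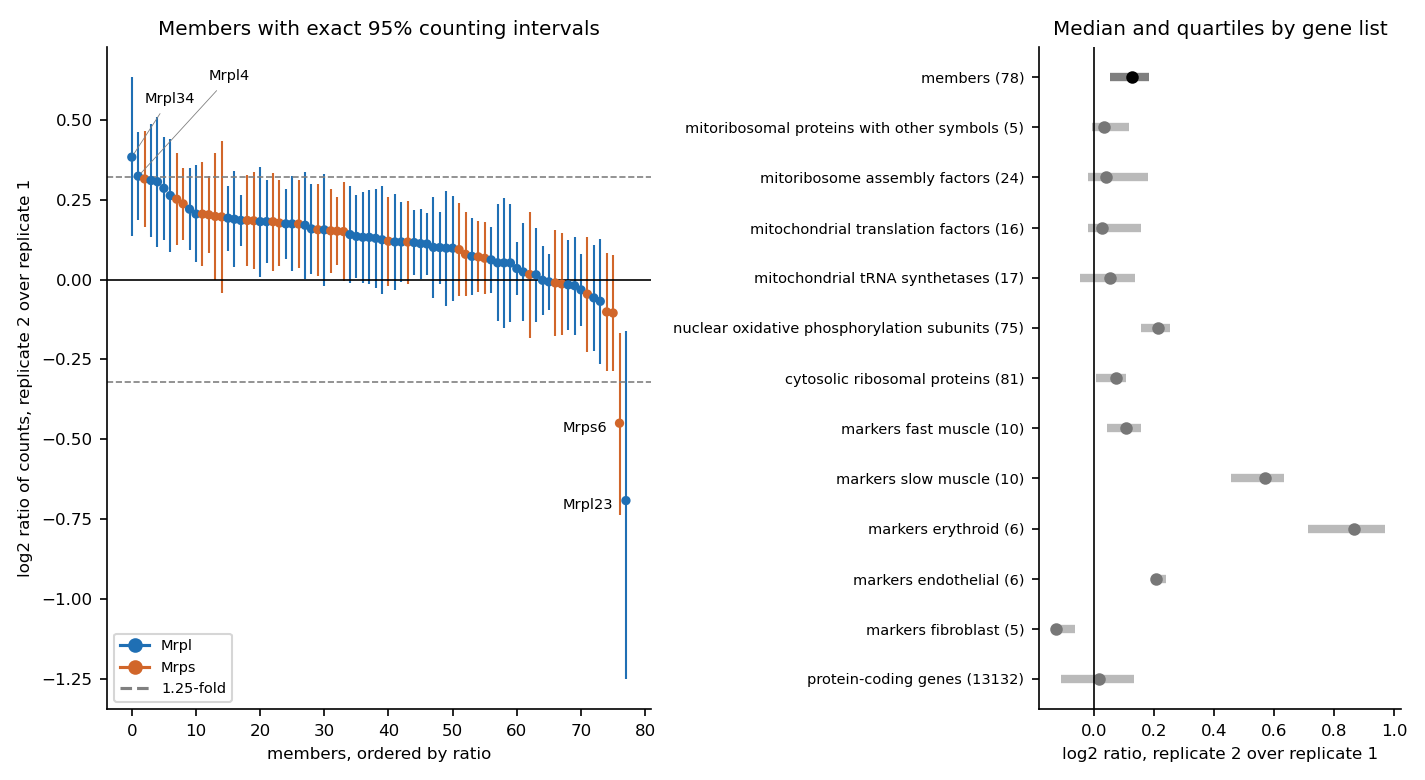
Left, log2 ratio of counts in replicate 2 over replicate 1 for each of the 78 genes, ordered by ratio, with exact 95% counting intervals. Right, medians (points) and quartiles (bars) by gene list, with the number of genes in brackets: the mitochondrial ribosomal protein genes lay at 0.13, the oxidative phosphorylation subunits at 0.21 and all protein-coding genes at 0.01.

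Some other lists differed more between the libraries. Among nuclear oxidative phosphorylation subunits the median log2 ratio was 0.21 and 74 of 75 lay above 0, beside 7006 of 13132 protein-coding genes. The exception was Atp5g2 (-0.51). Atp5g2 had 11.7 TPM in replicate 2 and 17.5 in replicate 1 in the gene tables. In the second tables it had 482 TPM in replicate 2 and 463 in replicate 1, so its lower value was not shared. Cytosolic ribosomal proteins had a median of 0.07 (the largest ratio, for Rpl39l, rests on 2 counts in replicate 2 and 0 in replicate 1), and translation factors, assembly factors and tRNA synthetases had medians of 0.03, 0.04 and 0.05. The largest ratio was 0.28 among translation factors, for Tufm, and 0.35 among assembly factors, for the GTPase Mtg2. The 13 mitochondrially encoded mRNAs had a median of -0.01, with 7 below 0, and mt-Co2, a cytochrome oxidase subunit, was lowest at -1.07. The ratio of mt-Co2 was particular to the gene tables, where it had 69.0 TPM in replicate 2 and 152 in replicate 1. In the second tables mt-Co2 had 956 TPM in replicate 2 and 1015 in replicate 1. Lars2, the mitochondrial leucyl-tRNA synthetase, stood out at 0.72 with 3373 counts in replicate 2 and 2145 in replicate 1. Its level was 149.7 TPM in replicate 2 and 81.3 in replicate 1 in the second tables, against 28.3 and 18.2 TPM in the gene tables. Markers of fibre and cell types also differed. All 10 slow-muscle markers were higher in replicate 2 (median 0.57), their sum being 1636 TPM in replicate 2 and 1197 in replicate 1. Of 7 erythroid markers, the 6 that averaged at least 20 counts were higher by counts (median 0.86), with a summed level of 2083 TPM in replicate 2 and 1139 in replicate 1. The 5 fibroblast markers were lower (median -0.13), with a sum of 3385 TPM in replicate 2 and 3691 in replicate 1. Endothelial markers summed to 161 TPM in replicate 2 and 149 in replicate 1, macrophage markers to 28.1 and 28.9 TPM, and adipocyte markers to 12.4 and 15.4 TPM, with Ucp1 listed at 0 in both. The part of these differences in the ratio of the mitochondrial ribosomal protein genes was not tested.

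A second set of transcript tables, in the column layout of kallisto, gave a separate quantification of the same libraries. Summed per gene, its TPM values were 1.46 times those of the gene tables at the median of protein-coding genes, and differences were read relative to that shift. The order of the 78 genes was similar in both (Spearman's correlation 0.879 across the genes). Of the 78 genes, 2 lay over 2-fold from the median shift, Mrpl23 and Mrpl27, beside 1.36% of 11507 protein-coding genes.

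Mrpl23 had rank 6 of the 78 genes in the second tables and rank 78 in the gene tables. The second tables gave it 130 TPM in replicate 2 and 137 in replicate 1, against 1.31 TPM and 2.71 TPM in the gene tables, a centred log2 difference of 5.44. Mrpl23 encodes the homologue of bacterial L23, which sits at the exit of the peptide tunnel, and lies at chr7:142532686-142540747 (mm10, plus strand). The gene tables instead gave 71.3 TPM in replicate 2 and 77.1 in replicate 1 to Mrpl23-ps1, a processed pseudogene at chr2:74591330-74591909 (minus strand), which the second tables listed at 0 in both libraries. Mrpl23 held 4.08% of the counts of the pair in replicate 2 and 6.25% in replicate 1. Summed, the pair had 72.6 TPM in replicate 2 and 79.8 in replicate 1 in the gene tables. That sum would place Mrpl23 at rank 6, its rank in the second tables, and leaves a centred difference of 0.26 between the tables. The ratio between libraries also shrank, to -0.07 for the pair.

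The pseudogene carries the whole coding sequence of the transcript Mrpl23-201 unchanged. Over 540 of its 580 bases, it is identical to that transcript (692 bases), and that stretch takes in all 441 coding bases. Of the 31-base words of Mrpl23-201, 77.0% also occur in the pseudogene, so reads within that coding sequence cannot be told apart between the copies. In the second tables the leading transcript was Mrpl23-206, with 71.3 TPM in replicate 2 and 91.4 in replicate 1, whose coding sequence is 519 bases long and which matches the pseudogene over 507 bases. The first 120 coding bases are shown because both copies hold them letter for letter (mm10, read along the coding strand of Mrpl23, start codon in capitals).
Mrpl23 and Mrpl23-ps1: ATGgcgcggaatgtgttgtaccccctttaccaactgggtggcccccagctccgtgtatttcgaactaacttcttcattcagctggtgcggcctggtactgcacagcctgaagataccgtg

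**Figure D3:**
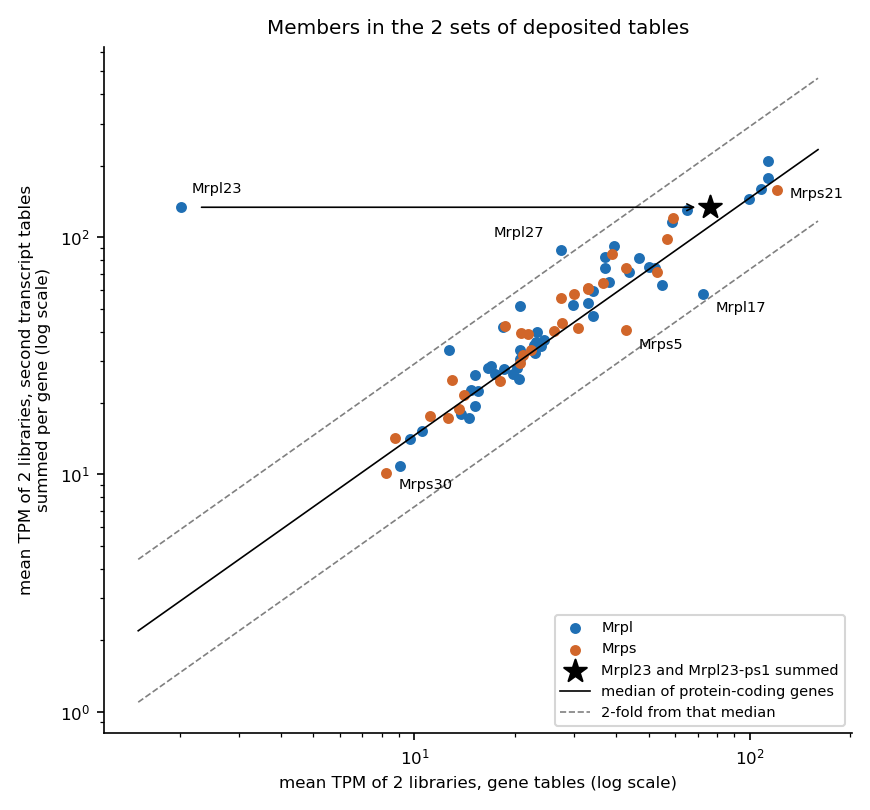
Mean TPM over both libraries in the second transcript tables, summed per gene (vertical), against the gene tables (horizontal), both on log scales, for the 78 genes. The solid line marks the median shift of protein-coding genes (1.46-fold) and the dashed lines 2-fold from it, and the arrow leads from Mrpl23 to the sum of Mrpl23 and its pseudogene (star), which falls inside the dashed lines.

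The other 4 pseudogenes named after these genes had lower levels. Mrpl48-ps was listed at 0.731 TPM in replicate 2 and 0.334 in replicate 1 in the second tables, and at 8.59 and 8.91 TPM in the gene tables. Mrpl53 shares every 31-base word of its leading transcript with the gene model Gm42688, which was listed at 0.43 TPM in replicate 2 and 0.58 in replicate 1. More than 10% of these words were shared with another gene for 24 of the 78 genes (30.8%), beside 14.1% of detected protein-coding genes, and more than 50% for 2 (2.56%), beside 5.13%. Levels of those 24 genes are less certain than the rest.

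Mrpl27, the homologue of L27 near the peptidyl transferase centre of bacterial ribosomes, had noncoding transcripts that the tables quantified differently. The second tables gave it 90.1 TPM in replicate 2 and 87.1 in replicate 1, against 28.0 TPM and 26.9 TPM in the gene tables, a centred difference of 1.14. Its coding transcript Mrpl27-201 had 38.7 TPM in replicate 2 and 37.3 in replicate 1 in the second tables. The noncoding transcript Mrpl27-202, of 439 bases, added 30.1 TPM in replicate 2 and 24.7 in replicate 1 there, against 0.37 TPM and 0 in the gene-table run. Of the 31-base words of Mrpl27-201, 49.2% also occur in other genes. Mrpl35 (0.85) and Mrpl22 (0.76) were next on the same side. In the other direction, Mrpl17 (-0.87) and Mrps5 (-0.63) were relatively lower in the second tables. For Mrpl17, the short transcript Mrpl17-204 (459 bases) was listed at 0 in the second tables, against 42.0 TPM in replicate 2 and 37.5 in replicate 1 in the gene-table run.

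Some of the 78 genes carried most of their signal on transcripts that are not annotated as protein-coding. Such transcripts include those labelled as retaining an intron, as targets of nonsense-mediated decay (the pathway that degrades mRNAs with an early stop codon) or as processed transcripts without an open reading frame. Protein-coding transcripts held 77.1% ± 0.0322 of the summed TPM of the 78 genes (SD, n = 2), beside 88.1% ± 0.195 over all protein-coding genes. In the second tables the shares were 70.2% ± 0.114 and 86.4% ± 0.140. Transcripts labelled for nonsense-mediated decay held 6.42%, beside 1.62% over all protein-coding genes, retained introns 8.05% beside 5.37%, and processed transcripts 8.46% beside 4.91%. By expected counts in place of TPM, the coding share was 82.4% for the 78 genes, beside 95.5% over detected protein-coding genes.

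The low shares were concentrated in a minority. Of the 75 genes with more than 1 transcript, 17 (22.7%) had under 50% of their TPM on coding transcripts, beside 7.32% of 10340 protein-coding genes. The median share over the 75 genes was 96.6%. By the second tables, the share was under 50% for 19 genes (25.3%), beside 10.0%, and 14 of the 17 were low in both. By counts, 11 of the 75 (14.7%) were under 50%, beside 3.94%. These 11 include Mrpl23, with 37.1% by counts and 62.9% by TPM. Of the 17, Mrps5, Mrps35, Mrpl13, Mrpl47, Mrps25, Mrpl35 and Mrpl19 were over 50% by counts.

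Mrpl51, at rank 5, had the lowest share, 2.29%. Its leading transcript was Mrpl51-202, a processed transcript of 855 bases with 64.7 TPM in replicate 2 and 70.0 in replicate 1. The only coding transcript, Mrpl51-201, is 3427 bases long and had 2.36 TPM in replicate 2 and 2.21 in replicate 1. The second tables gave the same picture, with a share of 2.24%. Mrpl57 (2.90%), Mrps16 (3.15%) and Mrps26 (3.99%) followed, led by Mrpl57-202 (519 bases, retained intron), Mrps16-202 (801 bases, processed transcript) and Mrps26-201 (1057 bases, retained intron). Their coding transcripts are 2877, 2572 and 4278 bases long. Mrps14, the homologue of bacterial S14, had 85.0% in the second tables and 4.36% in the gene-table run. The second tables placed 53.5 TPM in replicate 2 and 52.7 in replicate 1 on the coding transcript Mrps14-202, where the gene-table run placed 35.7 TPM in replicate 2 and 34.3 in replicate 1 on Mrps14-201, labelled for nonsense-mediated decay.

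A long coding annotation went with a low share of TPM. TPM divides counts by length, so at equal counts a long coding transcript has a lower TPM than a short noncoding one. The share by TPM is thus not independent of length. The longest coding transcript of the 17 genes had a median length of 3427 bases and exceeded 2000 bases in 14, while their leading transcripts had a median of 700.0 bases. For the other 58 genes with several transcripts, the median longest coding transcript had 1180 bases, and 10 exceeded 2000 bases. The leading transcript was not labelled protein-coding for 16 of the 78 genes (20.5%), beside 6.09% of detected protein-coding genes. Of these 16, 6 were processed transcripts, 6 were labelled for nonsense-mediated decay and 4 retained an intron. A complete annotated coding sequence was found in 1 of the 16, Mrpl57-202, which holds all 309 coding bases of its gene, and in 60 of the 62 leading transcripts labelled coding. Both quantifications chose the same leading transcript for 56 of the 78 genes.

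**Figure D4:**
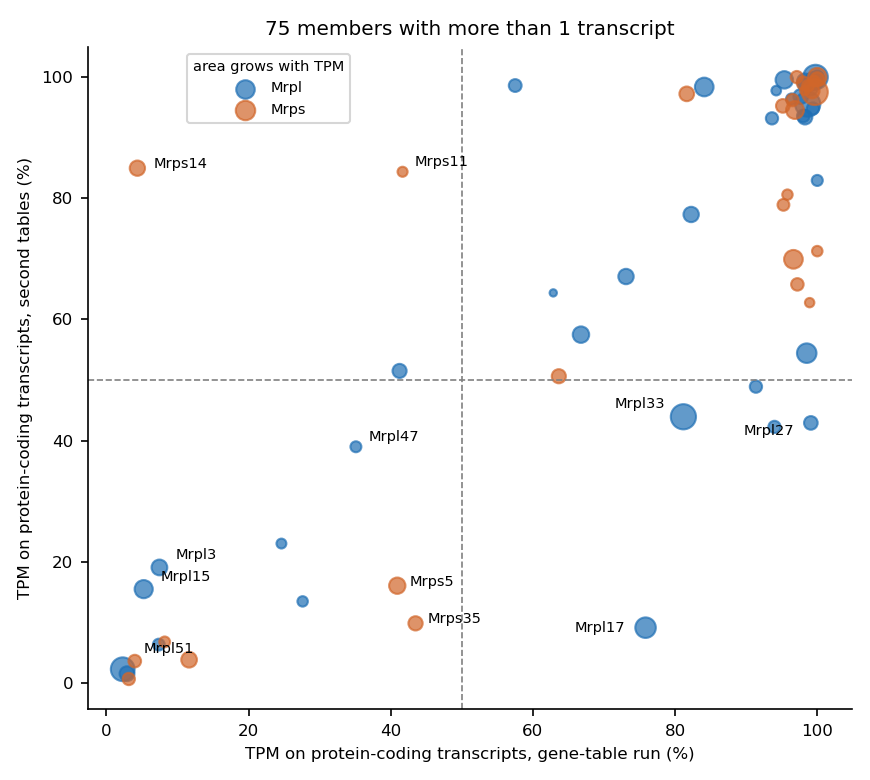
Share of each gene's TPM on protein-coding transcripts in the second tables (vertical, %) against the gene-table run (horizontal, %), for the 75 genes with more than 1 transcript; the area of a point grows with TPM. The median share was 93.6% in the second tables and 96.6% in the gene-table run, and 14 genes lie under 50% in both. Mrps14, Mrps11 and Mrpl13 lie under 50% only in the gene-table run. Mrpl17, Mrpl27, Mrpl38, Mrpl33 and Mrpl22 do so only in the second tables.

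Some of the genes start next to another gene. A protein-coding gene on the opposite strand started within 1000 bases upstream, head to head, for 18 of the 78 genes (23.1%), beside 10.3% of detected protein-coding genes. Opposite-strand genes whose starts overlap, such as Mrpl46 and Mrps11, were not counted. In 11 of the 18 pairs the starts were 100 bases apart or less. The closest were Mrpl54 and Apba3 (26 bases), Mrps34 and Eme2, and Mrps18c and the helicase gene Helq (both 29 bases). Mrps12 starts 172 bases from Sars2, the mitochondrial seryl-tRNA synthetase, and Mrpl49 starts 59 bases from Fau, which encodes a cytosolic ribosomal protein.

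The levels of such neighbours were often far apart. The mitochondrial ribosomal protein gene was the higher of the pair in 16 of 18, with a median of 28.7 TPM against 7.69 TPM for the neighbours. The neighbours' median was near the 8.49 TPM of all detected protein-coding genes. All 78 genes were detected, against 14 of the 18 neighbours, and no matching share was taken over pairs of other genes. Mrpl30, with 112 TPM in replicate 2 and 104 in replicate 1, starts 66 bases from Mitd1, which had 0.98 TPM in replicate 2 and 1.28 in replicate 1. The widest gap the other way was at Mrpl49, with 14.6 TPM in replicate 2 and 14.5 in replicate 1, where Fau had 309 TPM in replicate 2 and 285 in replicate 1. Mrps12, at 21.4 and 19.8 TPM, stood beside Sars2 at 7.88 and 7.93 TPM. An annotated gene overlapped on the opposite strand for 36 of the 78 genes (46.2%), beside 44.6%. The sources used here do not give whether reads were counted by strand, so levels of these 36 genes are less certain. Levels of the overlapping genes ranged widely. At Mrpl47, Ndufb5 had 205 TPM in replicate 2 and 189 in replicate 1, and at Mrpl36, Ndufs6 had 152 and 143 TPM. At Mrpl33, Rbks had 1.04 and 1.59 TPM, and the gene overlapping Mrpl12 (Gm16755) was listed at 0 in both.

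Promoter windows from 250 bases before to 50 bases after the RefSeq transcript start were available for 69 of the 78 genes, as 75 windows (GRCm38.p6). Motifs were searched as exact letters on both strands. Windows with GCGCATGC, a core of the site of nuclear respiratory factor NRF1, a regulator of nuclear genes for mitochondria, numbered 8 (10.7%), beside 5.25% of windows of detected protein-coding genes and 2.71% of all windows. CCGGAAGT, a core bound by ETS factors such as GABPA, was in 12 windows (16%), beside 7.97% and 3.89%. AAGATGGC, a core bound by YY1, was in 12 windows (16%), beside 4.44% and 2.75%. At least 1 of the 3 was in 29 windows (38.7%), beside 16.4% and 8.83%, and counting only bases before the start left 21 (28.0%), beside 11.4% and 6.43%. A match of these letters describes the window and does not show binding.

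Shares of the general promoter elements were closer to those of detected genes or below them. GGGCGG, the core of SP and KLF sites, was in 39 windows (52.0%), beside 63.4% of windows of detected genes and 35.7% of all windows. CCAAT was in 30 (40.0%), beside 37.5% of windows of detected genes. The E-box CACGTG was in 7 (9.33%), beside 9.94%, and TATAAA was in 5 (6.67%), beside 6.99%. The median GC content of the windows was 58.7%, beside 61.0% for detected genes.

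The 30-base RefSeq stretches that follow show where the NRF1 letters, or their reverse complement, stand (in capitals), in the reading direction of the gene, for the 4 genes with the highest levels among those with a match. The 8 windows hold 14 matches, since some windows have separate sites and some match on both strands where the letters extend to GCGCATGCGC. The stretches lie at chr5:31613928-31613957 (plus strand), chr7:105811080-105811109 (minus strand), chr3:94443299-94443328 (plus strand) and chr17:35916394-35916423 (minus strand).
Mrpl33: taccggaacccGCGCATGCcccggaagtag
Mrpl17: gccgagttactGCGCATGCgtcctctgaga
Mrpl9: ggcgcagctgcGCATGCGCggggtccttct
Mrps18b: gcgtgtcccgaGCATGCGCagtcgctcttc

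Mrpl33 and Mrpl17, at ranks 2 and 6, carry these letters with the first base at -12 and -11 from the start. In Mrpl33 an ETS match follows after 1 base. The ETS letters are shown in the same way, at chr5:31613937-31613966, chr6:125192099-125192128, chr14:54426899-54426928 and chr9:105053238-105053267 (all on the plus strand).
Mrpl33: ccgcgcatgccCCGGAAGTagtcgttgagc
Mrpl51: caggggctaaaCCGGAAGTatttgactgga
Mrpl52: gggccacgcccACTTCCGGttcccttgctc
Mrpl3: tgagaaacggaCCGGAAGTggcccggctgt

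The YY1 letters sat elsewhere, mostly just inside the transcript. Of 12 matches, 8 lay after the start, with a median centre at 19.0 bases from it, while the median was -45.5 bases for NRF1 matches and -23.0 bases for ETS matches. The letters contain ATG, and in 6 of the 12 windows this ATG is an annotated start codon of the gene, in Mrpl35, Mrpl49, Mrps18a, Mrps24, Mrps27 and Mrps7. That is 8.00% of the 75 windows, beside 1.38% of windows of detected protein-coding genes. Among windows that hold the motif, the share is 50%, beside 31.2%. The stretches shown, with the YY1 letters in capitals, lie at chr10:95501904-95501933 (minus strand), chr11:5707652-5707681 (minus strand), chr4:107066822-107066851 (minus strand) and chr11:115604147-115604176 (plus strand).
Mrpl42: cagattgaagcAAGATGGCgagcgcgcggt
Mrps24: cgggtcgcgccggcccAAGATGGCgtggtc
Mrpl37: ctgcacgggcaAAGATGGCggcgtccaggt
Mrps7: tgacagcggccAAGATGGCtgcccccgcgc

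**Figure D5:**
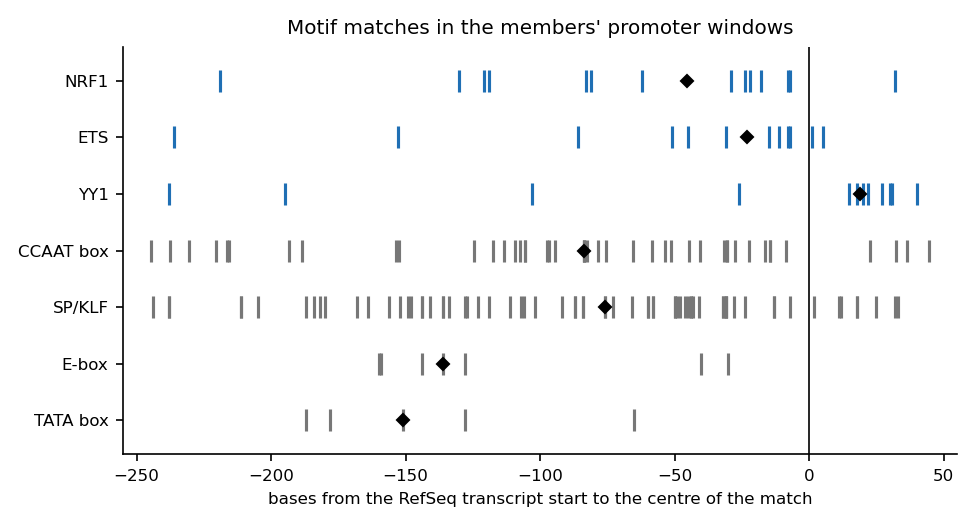
Distance in bases from the RefSeq transcript start to the centre of each motif match in the 75 promoter windows, with 1 tick per match and a diamond at the median. Within 60 bases before the start lay the centres of 6 of 14 NRF1 matches and 7 of 12 ETS matches. For SP/KLF these were 24 of 71 matches and for CCAAT 14 of 45. Of 12 YY1 matches, 8 lay after the start.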

How the data were processed

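Total RNA libraries from 2 mice were quantified by the authors against mm10 with GENCODE M21, per the submitters' processing notes. The deposited gene tables, in the column layout of RSEM, give expected counts and TPM per gene, and matching transcript tables add the percent of a gene's TPM on each transcript, per the file headers. A second deposited transcript table per library, in the column layout of kallisto, gives estimated counts and TPM. The sources used here do not name the programs or their settings.

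The genes, and the lists of other genes set beside them, were chosen with earlier results of these data known. One symbol of the oxidative phosphorylation list, Ndufb1, had no match. Expected counts were rounded and scaled by TMM (edgeR 4.0.16, R 4.3.3) over endogenous genes averaging at least 10 counts, with a prior count of 0.5, and ratios were read for genes averaging at least 20. No edgeR test was run, since there is 1 group. Tables were compared with a pseudocount of 0.1 TPM over genes with a mean of 1 TPM or more in both. Intervals are exact binomial intervals at 95% that cover counting error alone, as reads lacking molecular identifiers may be copies of one molecule. The ratio calculation was tested on simulated data. Other steps used Python 3.11.15 with pandas 2.3.3, numpy 2.4.6, scipy 1.17.1 and matplotlib 3.10.9. Promoter and motif sequences are from RefSeq (GRCm38.p6).

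Genes named were the 10 highest and 6 lowest by mean TPM, the 5 highest and 5 lowest ratios among genes averaging at least 100 counts, the 5 furthest apart between tables, the 5 lowest coding shares, the 3 Mrps18 genes, Mrps12, Mrpl12, Mrps30 and Mrps36. Of other lists, the highest, the lowest and the largest ratio were named, or all of up to 6 genes. Genes named as neighbours, pseudogenes, overlapping genes or holders of a motif fall outside this rule. Alternatives were the second tables, posterior means, other scalings (DESeq2 1.42.0 size factors, library totals, spike-ins), other minimums and each library alone. Removing the length trend, counting Mrpl23-ps1 with Mrpl23 and shares by expected counts were chosen after seeing the data.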

Additional observations from a re-analysis of the deposited data

How the results depend on the processing

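Of 62 alternative values, 22 moved and 1 reversed. A measured value counted as moved beyond its spread, and a count of genes or windows beyond 1.5 times, so that 21 windows with a motif before the start, against 29 in all, and 3 genes over 25% higher in the second tables, against 2, did not count. In the second tables the summed level was 4303 TPM, the median 40.7 TPM, the large-over-small log2 ratio -0.015, the ratio between libraries 0.14 and the coding share 70.2%. Counting Mrpl23-ps1 with Mrpl23 gave a sum of 2629 TPM, 1 gene over 20% lower and 1 over 2-fold apart between tables. The large-over-small ratio reversed to 0.064 with means of log2 TPM and was -0.11 with subunits by structure. The median ratio between libraries was 0.083 with library totals, 0.10 with spike-in totals, 0.064 with the length trend removed and 0.11 as a mean. Genes over 25% higher numbered 1 with library totals, 1 with spike-in totals and 0 with the length trend removed. Genes over 20% lower numbered 1 in the second tables and 1 with a minimum mean count of 100. Genes over 2-fold apart numbered 13 without centring and 1 with a minimum of 5 TPM. By expected counts the coding share was 82.4%. YY1 windows numbered 4 with bases before the start only. In each library alone, the sum was 2511 to 2599 TPM, the median 23.1 to 23.9 TPM, the large-over-small ratio -0.21 to -0.15, the coding share 77.0% to 77.1% and the genes over 2-fold apart 2 to 2. The causes of these shifts were not tested, other than those set by construction. No paired analysis was possible because there is 1 group. With 2 libraries, an SD rests on a single difference.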
